A study of Mus musculus with 2 samples.

Results

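The regions described here are 7 windows of the mouse genome around genes of hedgehog and parathyroid hormone-related protein (PTHrP) signalling: Shh, Ihh, Ptch1, Gli2, Gli3, Pthlh and Pth1r. Each window was given as an interval of mm9, and a Smad4 peak was counted in it when the midpoint of the peak lay inside. This placed 198 of 90984 peaks in windows that add up to 6.5 Mb on 5 chromosomes. Smad4 joins the receptor-activated Smads in the nucleus, where the complex regulates genes in response to BMP and TGF-β ligands. The peaks came from chromatin immunoprecipitation with a Smad4 antibody, in which crosslinked DNA fragments bound by the protein are pulled down and sequenced. The Smad4 library was set against input DNA, which is chromatin sequenced without the antibody, from the same kind of tissue. Both libraries were made from forelimbs of C57BL/6 embryos at embryonic days 12.5 and 13.5, ages that are given together for each. The submitters looked for direct Smad4 targets in chondrocyte hypertrophy. There was 1 Smad4 and 1 input library, so no comparison below has a replicate check or a test of significance, and the intervals cover counting error only.

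Hedgehog proteins are secreted ligands. They bind the receptor Patched1, which otherwise holds the pathway off, and the signal ends on the GLI transcription factors, of which Gli2 acts mainly as an activator and Gli3 mainly as a repressor. Sonic hedgehog patterns the limb bud from its posterior margin, and its limb expression depends on a distant enhancer inside an intron of Lmbr1. Indian hedgehog is made later by chondrocytes that are about to become hypertrophic. It induces PTHrP, the product of Pthlh, near the joint surface, and PTHrP acts through its receptor Pth1r to keep growth plate chondrocytes proliferating.

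Peaks are listed by position alone, and no annotation of mm9 was used. A window is therefore named after the gene it was drawn around, whether that gene lies inside it was not checked, and no peak is assigned to a gene, promoter or enhancer. The windows reach beyond these genes. In the gene order of RefSeq on GRCm38.p6, another assembly that served for names only, the nearest protein-coding neighbours of Shh are Rbm33 and Rnf32, with Lmbr1 next after Rnf32. Those of Ihh are Cfap65 and Nhej1, those of Ptch1 Fancc and Ercc6l2, those of Pthlh Klhl42 and Ccdc91, and those of Pth1r Ccdc12 and Myl3. Gli2 lies between Tfcp2l1 and Inhbb, and Gli3 between AW209491 and Inhba. Inhbb and Inhba encode subunits of activins, which are TGF-β family ligands.

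Most of the 198 peaks were small and weakly enriched, much like those of the whole list. The fold is the ratio deposited with each peak by the authors' peak caller, and its background is not stated. It had a median of 1.54 in the windows and of 1.49 over all peaks. Of the 198 peaks, 109 (55.1%) were at 1.5-fold or above, beside 49.1% of the list, and 33 were at 2-fold or above (16.7%, exact binomial 95% interval 11.8 to 22.6%), beside 14.3% of the whole list. At 3-fold or above there were 3 peaks (1.52%, 0.314 to 4.36%), beside 0.835% of the list. The shares of the list at 2-fold and 3-fold lie within the intervals. The lowest number of tags in the list, 15, was held by 78 of the 198 peaks (39.4%), beside 33.8% of all peaks. Counting error alone puts 15 tags between 8.40 and 24.7 (exact Poisson, 95%), and 184 of the 198 peaks held fewer than 25 (92.9%), beside 89.3% of all peaks. The deposited false discovery rate (FDR) was at most 1% for 157 of the 198 peaks (79.3%), beside 77.6% of the list.

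**Figure D1:**
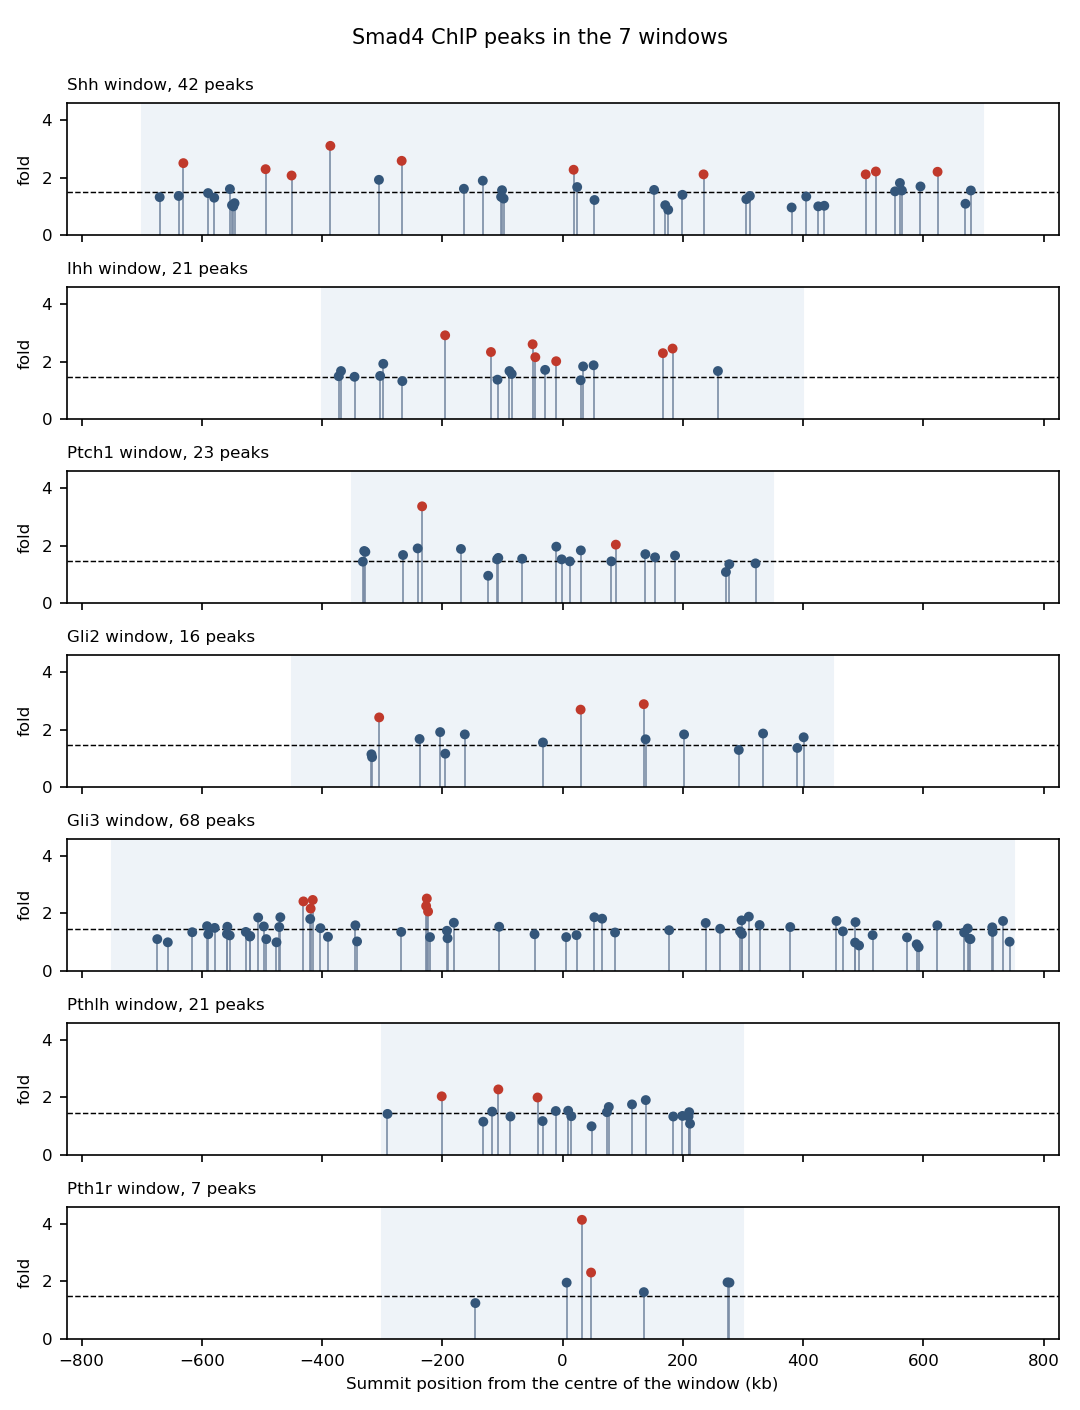
Deposited fold of each Smad4 peak (vertical axis) by the distance of its summit from the centre of its window in kb (horizontal axis), in the 7 windows. Shading marks the window, red points a fold of at least 2 and the dashed line the median fold of the rest of that chromosome; the Gli3 window holds 68 peaks with a highest fold of 2.52, and the Pth1r window 7 peaks with a highest fold of 4.14.

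The Shh window, chr5:28500001-29900000, was drawn to reach from Shh to its limb enhancer. It held 42 peaks, 30 per Mb (exact Poisson 95% interval 21.6 to 40.6), against 34.9 per Mb in the rest of chromosome 5, a ratio of 0.861 (0.620 to 1.17). The interval holds 1, so the density of peaks was not distinguishable from that of the chromosome. Of 105 other windows of 1.4 Mb laid side by side along chromosome 5, 66 held as many peaks or more. The median fold was 1.54 (95% interval of the median 1.33 to 1.67) in the window and 1.5 in the rest of the chromosome. Of the 42 peaks, 10 were of at least 2-fold (23.8%, 12.1 to 39.5%), against 15.6% in the rest, which lies within the interval.

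Peaks of at least 2-fold were spread along the Shh window, in 8 of the 14 stretches of 100 kb that make it up. The highest fold was 3.10 at chr5:28813375-28814167, with 22 tags (13.8 to 33.3) and a p score of 231.87. The deposited p score is −10 times log10 of a p-value. This peak ranked 559 by fold in the whole list and 30 on its chromosome. The next folds were 2.58 at chr5:28932012-28932816, with 25 tags, and 2.50 at chr5:28568931-28569338, with 15 tags. These 3 leading peaks lay in the lower-numbered part of the window, 313.7, 432.3 and 69.2 kb from its start. The peak with the most tags was another one, chr5:29398709-29399759, with 42 tags (30.3 to 56.8), the highest p score of the window (263.97) and a fold of 1.40. So the order by p score and the order by fold named different peaks here. Peaks also came close together in places without being strong. A run is taken here as at least 3 peaks with gaps of at most 5 kb. The run at chr5:28646452-28654458 had 4 peaks with folds of 1.00 to 1.60, and the run at chr5:29097503-29101961 had 3 with folds of 1.27 to 1.56.

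The Ihh window, chr1:74600001-75400000, had the highest density of strong peaks among the 7 windows, with strong meaning at least 2-fold, and few weak ones. In density of strong peaks it was not distinguishable from any other window. The Shh window, for example, had 7.14 per Mb, a ratio of Shh to Ihh of 0.816 (0.280 to 2.53). It had 21 peaks, 26.3 per Mb (16.2 to 40.1), against 33.8 per Mb in the rest of chromosome 1, a ratio of 0.777 (0.481 to 1.19). The median fold was 1.71 (1.5 to 2.15) in the window and 1.47 in the rest of the chromosome, which lies below the interval. At least 2-fold were 7 of the 21 peaks (33.3%, 14.6 to 57.0%), against 12.3% in the rest, which also lies below the interval. Among peaks with FDR of at most 1%, neither call held, as the difference in share was 19.1 percentage points (-0.485 to 43.3) and the difference in median fold 0.19 (-0.01 to 0.57). The strong and the weak peaks departed from the chromosome in opposite directions. Strong peaks lay at 8.75 per Mb, against 4.16 in the rest, a ratio of 2.10 (0.843 to 4.36) whose interval holds 1. Those under 1.5-fold lay at 6.25 per Mb, against 17.5, a ratio of 0.357 (0.116 to 0.834). Of these ratios, that of the weak peaks left 1 outside its interval. FDR was at most 1% for 20 of the 21 peaks (95.2%, 76.2 to 99.9%), against 77.4% in the rest, which lies within the interval. The scarcity of weak peaks was not particular to Ihh. The Gli2 and Pth1r windows held fewer per Mb (5.56 and 1.67), with ratios to their chromosomes of 0.317 (0.103 to 0.741) and 0.0991 (0.00251 to 0.553).

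The highest fold of the Ihh window was 2.91 at chr1:74804178-74804758, with 19 tags (11.4 to 29.7) and a p score of 221.86, the highest of the window. It ranked 57 by fold on chromosome 1. The following folds were 2.60 at chr1:74949737-74950252, with 16 tags, and 2.45 at chr1:75182529-75183114, with 15 tags. The stretch from 74900001 to 75000000 held 6 peaks, 3 of them of at least 2-fold, the most of any 100 kb in this window. It also held the peak with the most tags, chr1:74911164-74911998, with 29 tags (19.4 to 41.6) and a fold of 1.67. The last 100 kb of the window held no peak, and 0 of the 21 peaks lay in a run, against 15.9% of peaks in the rest of the chromosome. With 21 peaks, a share of up to 16.1% remains possible for a count of 0 (exact binomial 95% interval), so the difference is not distinguishable.

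The Ptch1 window, chr13:63300001-64000000, was drawn for the gene of the hedgehog receptor, which is itself a transcriptional target of the pathway. Its 23 peaks gave 32.9 per Mb (20.8 to 49.3), against 37.1 per Mb in the rest of chromosome 13, a ratio of 0.886 (0.561 to 1.33). The median fold was 1.59 (1.45 to 1.81) in the window and 1.46 in the rest, which lies within the interval. Here the outcome turned on the limit. At 2-fold or above were 2 of the 23 peaks (8.70%, 1.07 to 28.0%), against 13.2% in the rest. At 1.5-fold or above were 16 peaks (69.6%, 47.1 to 86.8%), against 46.5% in the rest, which lies below the interval. The folds of 14 of the 23 peaks lay from 1.5 to just under 2. At 1.5-fold or above, the Ihh window also stood above its chromosome, with 16 of 21 peaks (76.2%, 52.8 to 91.8%), against 48.2%.

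The window of Ptch1 held the second-highest fold of the 198 peaks and their highest p score, in different peaks. The fold of 3.36 lay at chr13:63415862-63416588, with 18 tags (10.7 to 28.4) and a p score of 172.45. It ranked 11 by fold on chromosome 13 but 529 by p score. The highest p score, 534.01, lay at chr13:63319640-63321238, with 57 tags (43.2 to 73.9), a fold of 1.81 and an FDR of 0.51%. That peak is 1599 bp long and ranked 12 by p score on its chromosome. The peak that follows it after 178 bp, chr13:63321417-63323063, is 1647 bp long and held 53 tags with a fold of 1.78. Together with a peak of 15 tags before them, they form a run of 5.73 kb near the start of the window. These 2 long peaks are the longest of the 198. The remaining peaks named by fold were chr13:63738285-63739066, with 26 tags and a fold of 2.03, and chr13:63639275-63639804, with 15 tags and a fold of 1.96.

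The windows of the GLI genes differed from each other. The Gli3 window held 45.3 peaks per Mb (35.2 to 57.5) and the Gli2 window 17.8 (10.2 to 28.9), a ratio of 2.55 (1.46 to 4.71). Their median folds ran the other way, at 1.39 (1.29 to 1.53) for Gli3 and 1.70 (1.29 to 1.91) for Gli2, with intervals that overlap. The difference in number was large among peaks under 1.5-fold, at 26 per Mb in the Gli3 window and 5.56 per Mb in the Gli2 window, a ratio of 4.68 (1.84 to 15.2). At 2-fold or above, the Gli3 window had 4 per Mb (6 peaks) and the Gli2 window 3.33 per Mb (3 peaks), a ratio of 1.20 (0.256 to 7.42) that these few peaks leave wide.

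The Gli2 window, chr1:120400001-121300000, had 16 peaks against 33.8 per Mb in the rest of chromosome 1, a ratio of 0.525 (0.300 to 0.854). Of 214 other windows of 0.9 Mb along the chromosome, 210 held as many peaks or more and 6 as few or fewer. The density thus lay below that of the chromosome beyond counting error. The median fold of 1.70 stood against 1.47 in the rest, which lies within its interval, and 3 of the 16 peaks (18.8%, 4.05 to 45.6%) reached 2-fold, against 12.4%. The highest fold, 2.88, lay at chr1:120984566-120985167. That peak also had the most tags of the window, 23 (14.6 to 34.5), and its highest p score, 241.24. The peaks next in fold were chr1:120879635-120880293, with a fold of 2.69 and 18 tags, and chr1:120544534-120545079, with a fold of 2.42 and 15 tags. Fold, tags and p score therefore named the same leading peak in this window. The longest distance between neighbouring summits was 130.0 kb, and 115 of 6553 such distances on chromosome 1 were as long. There was no run, and 9 of the 16 peaks held 15 tags (56.3%, 29.9 to 80.2%), against 34.7% in the rest.

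The Gli3 window, chr13:15000001-16500000, had 68 peaks against 37.0 per Mb in the rest of chromosome 13, a ratio of 1.23 (0.951 to 1.56). Its interval holds 1, and 11 of 76 other windows of 1.5 Mb held as many peaks or more. The median fold of 1.39 stood against 1.46 in the rest, and 6 of the 68 peaks (8.82%, 3.31 to 18.2%) reached 2-fold, against 13.3%. Both values of the chromosome lie within the intervals. The 6 peaks of at least 2-fold were not spread evenly: they lay in 2 of the 15 stretches of 100 kb, with 3 in the stretch from 15300001 to 15400000 and 3 in that from 15500001 to 15600000. The first group contains chr13:15318637-15319089, with a fold of 2.42 and 18 tags, and chr13:15333963-15334591, with a fold of 2.47 and 18 tags. The second contains the highest fold of the window, 2.52 at chr13:15523578-15524299, with 31 tags (21.1 to 44.0), which ranked 76 by fold on chromosome 13. It belongs to a run of 4 peaks over 6.98 kb, chr13:15522781-15529762, with folds of 1.18 to 2.52 and 97 tags in all, and 3 of these peaks were of at least 2-fold.

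Runs were most frequent around Gli3. There were 6 runs with 19 of the 68 peaks (27.9%, 17.7 to 40.1%), against 18.8% in the rest of the chromosome, which lies within the interval. In 4 of these 6 runs every fold was below 2. The most tags in the window, 34 each (23.5 to 47.5), were held by chr13:15280319-15281253, with a fold of 1.87 and the highest p score of the window (286.23), and by chr13:16341392-16342397, with a fold of 0.83. The fold of 0.83 was the lowest of all 198 peaks. Equal tags thus stood beside unlike folds.

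The Pthlh window, chr6:146900001-147500000, did not stand apart from its chromosome by any measure taken here. It held 21 peaks, 35 per Mb (21.7 to 53.5), against 35.3 per Mb in the rest of chromosome 6, a ratio of 0.991 (0.613 to 1.52). The median fold was 1.49 (1.34 to 1.67) in the window and 1.47 in the rest. Peaks of at least 2-fold numbered 3 of 21 (14.3%, 3.05 to 36.3%), against 12.7% in the rest. The highest fold, 2.28, was the lowest maximum of the 7 windows. It lay at chr6:147092853-147093278, with 15 tags, and ranked 268 by fold on its chromosome. The peaks next in fold were chr6:146998463-146999090, with a fold of 2.04 and 18 tags, and chr6:147157759-147158706, with a fold of 2, 30 tags (20.2 to 42.8) and the highest p score of the window, 230.96. A run of 3 peaks lay at chr6:147409239-147412851. Its last member, chr6:147411510-147412851, had the most tags of the window, 39 (27.7 to 53.3), and a fold of 1.09.

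The Pth1r window, chr9:110300001-110900000, held the fewest peaks and the strongest one. It had 7 peaks, 11.7 per Mb (4.69 to 24.0), against 34.2 per Mb in the rest of chromosome 9, a ratio of 0.341 (0.137 to 0.703). All 199 other windows of 0.6 Mb on the chromosome held as many peaks or more, and 1 of them held as few. The leading peak, chr9:110631662-110632240, had a fold of 4.14, 19 tags (11.4 to 29.7), a p score of 323.76 and an FDR of 0.17%. It ranked 5 by fold on chromosome 9 and 79 among the 90984 peaks of the list. After it came chr9:110647098-110647664, with a fold of 2.31 and 16 tags. Their summits are 15.3 kb apart, and both lie in the stretch from 110600001 to 110700000, which held 3 of the 7 peaks. The peak with the most tags, chr9:110873757-110874648, had 25 tags (16.2 to 36.9) and a fold of 1.97. A neighbour 3.1 kb farther on had 19 tags and a fold of 1.96. The lowest fold of the window was 1.25.

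The median fold of the Pth1r window was 1.96, against 1.5 in the rest of chromosome 9. With 7 peaks the interval of the median spans the whole range, 1.25 to 4.14, so the medians are not distinguishable. With the window widened by 250 kb on both sides, which brings it to 20 peaks, the difference in medians was 0.15 (-0.10 to 0.46), against 0.46 in the window as given, and the density ratio was 0.531 (0.324 to 0.821). Peaks of at least 2-fold numbered 2 of 7 (28.6%, 3.67 to 71.0%), against 14.6% in the rest. Peaks under 1.5-fold numbered 1.67 per Mb, against 16.8 in the rest, a ratio of 0.0991 (0.00251 to 0.553). For peaks of at least 2-fold the ratio was 0.666 (0.0804 to 2.41), and its interval holds both 1 and the ratio of the weak peaks, so no difference between weak and strong peaks is shown.

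**Figure D2:**
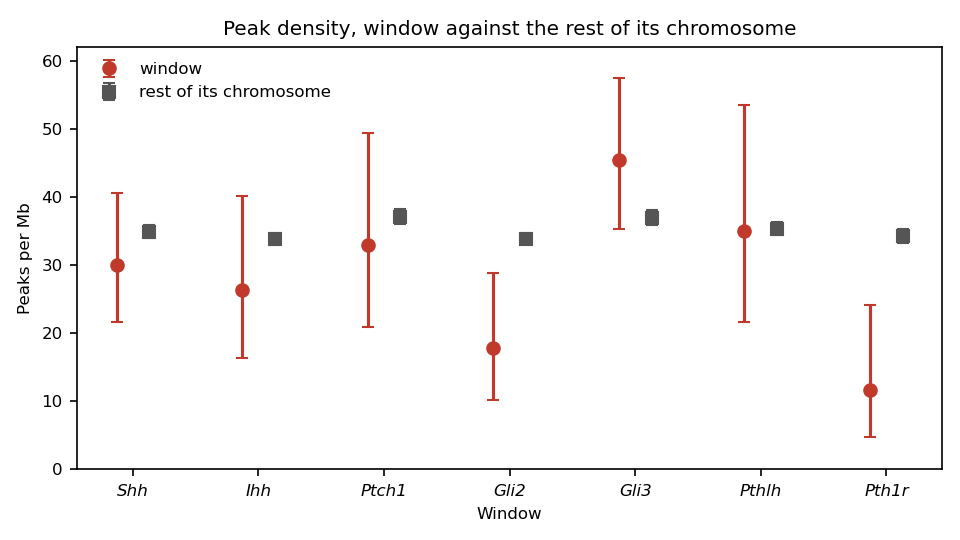
Peaks per Mb (vertical axis) in each window (red circle) and in the rest of its chromosome (grey square), with exact Poisson 95% intervals of the counts. The intervals of the Gli2 window (10.2 to 28.9) and the Pth1r window (4.69 to 24.0) lie below the chromosome, and those of the other windows overlap it.

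Set side by side, 6 of the 7 windows had a lower density of peaks than the rest of their chromosomes, and the ratios ran from 0.341 for Pth1r to 1.23 for Gli3. In order of density the windows were Gli3, Pthlh, Ptch1, Shh, Ihh, Gli2 and Pth1r. No neighbours in this order differed beyond counting error, as the interval of the ratio held 1 in 6 of 6 such pairs. Of all 21 pairs of windows, 7 had an interval that left out 1, without adjustment for the number of pairs. These were Gli3 against Shh, Ihh, Gli2 and Pth1r, and Pth1r against Pthlh, Ptch1 and Shh. The median fold was higher than in the rest of the chromosome for 6 windows and lower for Gli3, and with the windows and peaks as given the chromosome's value lay outside the interval of the window for Ihh and inside it for the other 6. This depended on the settings. With FDR of at most 1% the difference for Ihh held 0 in its interval and that for Pth1r did not (0.355, 0.02 to 2.53, 6 peaks). With windows widened by 250 kb, the intervals for Ihh (0.25, 0.10 to 0.48, 34 peaks) and Ptch1 (0.13, 0.04 to 0.30, 41 peaks) left out 0. Strong peaks made up a larger share than in the rest for 5 windows and a smaller one for Gli3 and Ptch1. The chromosome's share lay inside the interval of every window except Ihh, so these directions are mostly not distinguishable from no difference.

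**Figure D3:**
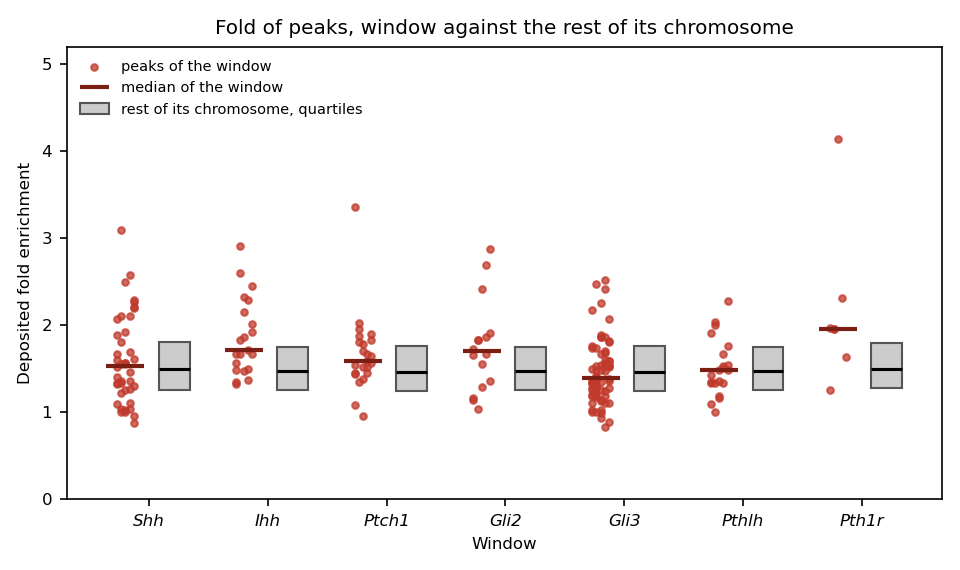
Deposited fold of every peak (vertical axis) in each window (red points, with the median as a bar) beside the quartiles and median of the rest of its chromosome (grey box with black line). In the Ihh window the median of 1.71 lies above the chromosome's 1.47, and in the Gli3 window 1.39 lies below 1.46.

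Windows with fewer peaks had higher median folds. Over the 7 windows, peaks per Mb and median fold had a Spearman rho of -0.93 and a Pearson r of -0.94. Without the Pth1r and Gli3 windows, the sparsest and the densest, r was -0.82 over 5 windows. All points share 1 library, and both measures come from the same peaks, so this is a description of the list. The same direction held, less tightly, elsewhere on these 5 chromosomes. Over 728 bins of 1 Mb with at least 5 peaks, members left out, rho was -0.48. Bins that a window overlaps lost its peaks but were still counted as full bins. Some of them therefore stand in a sparser class than their true density. The median fold of a bin had a median of 1.69 over 37 bins of 10 to 19 peaks, 1.58 over 208 bins of 20 to 29, 1.47 over 279 bins of 30 to 39 and 1.45 over 188 bins of 40 to 59. The windows ran in the same direction as the chromosomes they lie on, and nothing particular to the hedgehog and PTHrP genes can be read from it. The medians of Pth1r (1.96), Ihh (1.71) and Ptch1 (1.59) lay above the upper quartiles of their density classes (1.81, 1.675 and 1.55). Those of the other windows lay within the quartiles. The windows differ from the bins in length, and these departures were not tested.

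**Figure D4:**
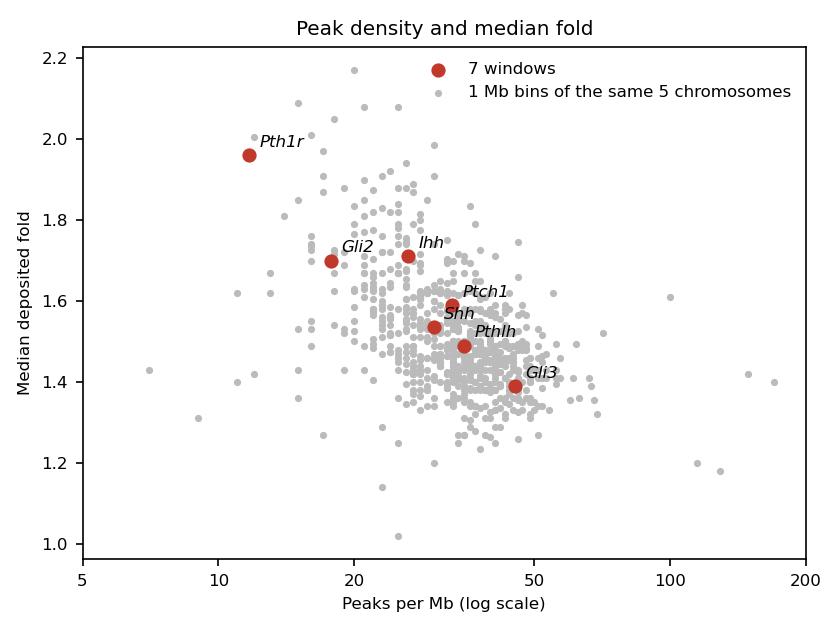
Median deposited fold (vertical axis) against peaks per Mb (horizontal axis, log scale) for the 7 windows (red, named) and for 1 Mb bins of the same 5 chromosomes with at least 5 peaks, members left out (grey). The windows run from Pth1r at 11.7 peaks per Mb and a median of 1.96 down to Gli3 at 45.3 and 1.39, inside the cloud of the bins. Bins that a window overlaps are plotted as full bins without its peaks, so they appear sparser than they are.

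In size, the members did not stand apart. The median number of tags per peak was 15 to 18 in the 7 windows and 16 in the rest of each of the 5 chromosomes. The median length was 566 to 597 bp in the windows, against 582 to 587 bp in the rest. The largest members held 57 tags, while the rest of these chromosomes held peaks of up to 1377 tags, and 0 of the 198 peaks lay in a 1 Mb bin of at least 100 peaks. Where the windows end was set by the intervals alone. The 14 peaks just inside the edges had folds of 1.02 to 1.96 and the 14 just outside folds of 1.42 to 3.27, with medians of 1.40 and 1.72. No interval was computed for these medians, and a difference at the edges was not tested.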

How the data were processed

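Smad4 ChIP and input DNA from mouse forelimb were sequenced, 1 library each. Per the submitters' processing notes, the tools were MACS, SICER and BWA and the build mm9; versions and settings are not given in the sources used here. The file used is 1 peak list with MACS columns, per the file headers. The title of the list refers to transcription start sites. Whether the list was restricted on distance to such sites is not known, so the densities describe the list as given. Tag counts, the ratio named fold enrichment, the FDR in percent and the p score (10 times the negative log10 of a p-value) were made by the authors and used as deposited, as a description of single peaks. Library depth is unknown. Positions are 1-based mm9.

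Peaks were placed in windows by midpoint. The rest of a chromosome ran from its first to its last peak, without the window, and includes any unassembled sequence. Intervals at 95% were exact binomial, exact Poisson, exact conditional (ratios) and order-statistic (medians). Those of ratios and medians were checked on simulated independent counts and folds. That check does not cover peaks that lie close together, as in runs. Tags carry no molecular identifiers, and how repeats of a molecule were treated in the tag counts is not known. Peaks are not replicates. In each window the text names the 3 peaks of highest fold, those of highest p score and most tags, and any of at least 3-fold, besides some pointed out after their values were seen. Distances to genes, the other pathway genes and peak sequences were not analysed here, as mm9 annotation and sequence were not used. Windows and measures were chosen with earlier results of these data known. Tools were scipy 1.17.1, pandas 2.3.3, numpy 2.4.6 and matplotlib 3.10.9 under Python 3.11.15.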

Additional observations from a re-analysis of the deposited data

How the results depend on the processing

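Of 149 alternative values, 134 stayed within the interval of the reported value (within 1.5 times for counts of peaks in runs, and within 10% for the correlation, which have no interval). Part of them left the value unchanged. Assignment by summit or by overlap gave the same density ratio in every window. Removal of dense 1 Mb bins changed nothing on chromosomes 1, 6 and 9. Removal of member windows changed nothing for Shh, Pthlh and Pth1r. The count of 134 is therefore no measure of robustness. Windows kept the side of the chromosome's density under assignment by summit or overlap, merging of peaks less than 1 kb apart, removal of dense 1 Mb bins or of all member windows from the rest, and widening by 250 kb. With peaks of at least 2-fold, 3 of 7 windows kept their side of the chromosome's density. The ratio was 1.32 for Shh, 2.10 for Ihh, 0.815 for Gli3 and 1.12 for Pthlh, all with intervals that hold 1, and the percentage of other windows with as many such peaks or more was 27.6 for Shh, 7.47 for Ihh, 67.1 for Gli3, 67.8 for Gli2, 78.9 for Ptch1, 45.0 for Pthlh and 72.4 for Pth1r. Counting stronger peaks alone changes what is counted. At 3-fold the difference in share took the other sign around Ihh (-0.674 percentage points, -0.674 to 15.4), Gli2 (-0.673) and Pthlh (-0.601), each with 0 peaks, which at so low a share in the rest tells nothing of an excess, and around Ptch1 (3.93, 1 peak). At 1.5-fold it was 23.1 points for Ptch1 and -4.91 for Pthlh. With FDR of at most 1%, the intervals of both Ihh differences held 0 (19.1 points and 0.19 in median fold), the density ratio of Pthlh was 1.05, the median fold differences of Shh and Pthlh were -0.035 and -0.07, and the difference in median tags of Gli2 was -2 tags. Widening by 250 kb brought the density ratio of Pth1r to 0.531 with 20 peaks, its median fold difference to 0.15 and the correlation of density with median fold to a rho of -0.75. With gaps of at most 10 kb, 35 of the 68 Gli3 peaks lay in runs. The cause of these changes was not tested. No paired analysis was possible because ChIP and input have 1 library each. Precision is limited by the few tags of most peaks, and shares over 7 peaks have intervals too wide to separate most values.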
